A study of Mus musculus with 9 samples.

Results

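The extracellular antagonists and modulators of bone morphogenetic protein (BMP) signalling were followed in the cochlear duct of embryonic day (E) 14.5 mice carrying the *Prdm16* cGT allele. They were 9 genes of the 54232 counted: *Chrdl1*, *Chrd*, *Bmper*, *Nog*, *Grem1*, *Nbl1*, *Sostdc1*, *Twsg1* and *Bambi*. The genes were chosen from the family by name, with the level of *Chrdl1* in null against WT ducts already known, so for them that contrast is a description: no p is given, and counts past the thresholds there support nothing. RNA came from 9 libraries, each from the microdissected ducts of both inner ears of 1 embryo, with 3 libraries per genotype: WT (+/+), *Prdm16* cGT heterozygote (cGT/+) and *Prdm16* cGT null (cGT/cGT). The allele is a gene trap carried from the germline on an FVB/NJ background, so *Prdm16* is lost in every tissue of the embryo and not in the duct alone, and the embryos came from heterozygote intercrosses. The study states that littermates were used and does not say which embryos shared a litter.

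BMPs are secreted ligands that bind pairs of type I and type II serine/threonine kinase receptors, which phosphorylate Smad proteins that enter the nucleus with Smad4. Antagonists bind the ligands outside the cell and keep them from the receptors, so the amount of free ligand at a cell depends on the antagonists around it as well as on the ligand made. In the cochlear duct, *Bmp4* is made on the future outer sulcus side, opposite Kölliker's organ (KO), the epithelial ridge in which *Prdm16* is expressed, and the prosensory domain lies between them.

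The family was taken in 4 groups. *Chrdl1* (chordin-like 1), *Chrd* (chordin) and *Bmper* are secreted proteins with chordin-type cysteine-rich repeats, the modules that hold BMP ligands, and Bmper can also promote signalling. *Nog* (noggin), *Grem1* (gremlin 1), *Nbl1* (the founding DAN protein) and *Sostdc1* (also called ectodin or Wise) are secreted cystine-knot proteins. *Twsg1* (twisted gastrulation) is a secreted protein that binds both BMPs and chordin. *Bambi* is a membrane protein that resembles a type I receptor but lacks the kinase domain.

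The repeats were read from the coding sequences of the reference transcripts of GRCm38 (GENCODE M21), to show the modules by which *Chrdl1*, *Chrd* and *Bmper* are grouped. A paired spacing was searched on the coding strand: a cysteine codon, 2 codons, cysteine, 1 codon, cysteine, followed downstream by 2 adjacent cysteine codons, 2 codons and cysteine. It was found 3 times in *Chrdl1*, 4 times in *Chrd*, 4 times in *Bmper* and 0 times in each of the other 6 coding sequences. Cysteine made up 7.61% of the 447 codons of *Chrdl1*, 4.95% of those of *Chrd* and 11.5% of those of *Bmper*, and between 4.31% (*Nog*) and 11.3% (*Twsg1*) in the others. The 3 stretches of *Chrdl1*, which lie on the minus strand of the X chromosome, and the first stretch of *Bmper* and of *Chrd* on the plus strand are printed 5′ to 3′ with introns removed and their 10 cysteine codons in capitals. They cover chrX:143365901-143368450 (codons 32 to 94, 2 exons), chrX:143325993-143328023 (codons 110 to 173, 2 exons), chrX:143299873-143300061 (codons 255 to 317, 1 exon), chr9:23224772-23254467 (codons 50 to 105, 2 exons) and chr16:20733533-20734129 (codons 73 to 147, 2 exons). All 5 show the same order of cysteine codons, with stretches of other codons of unequal length between them.
Chrdl1 stretch from codon 32: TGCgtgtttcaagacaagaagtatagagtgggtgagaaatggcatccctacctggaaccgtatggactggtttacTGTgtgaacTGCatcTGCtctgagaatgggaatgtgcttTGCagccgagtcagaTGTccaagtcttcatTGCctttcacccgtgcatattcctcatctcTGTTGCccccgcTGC
Chrdl1 stretch from codon 110: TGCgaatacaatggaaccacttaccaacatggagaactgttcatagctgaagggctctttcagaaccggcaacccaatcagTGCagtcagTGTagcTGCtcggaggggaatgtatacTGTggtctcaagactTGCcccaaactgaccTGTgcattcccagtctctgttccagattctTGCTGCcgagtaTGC
Chrdl1 stretch from codon 255: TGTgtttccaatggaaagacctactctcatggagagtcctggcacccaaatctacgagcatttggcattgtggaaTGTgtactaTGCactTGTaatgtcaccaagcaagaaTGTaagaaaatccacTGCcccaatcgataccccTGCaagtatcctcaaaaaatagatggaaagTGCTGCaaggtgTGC
Bmper stretch from codon 50: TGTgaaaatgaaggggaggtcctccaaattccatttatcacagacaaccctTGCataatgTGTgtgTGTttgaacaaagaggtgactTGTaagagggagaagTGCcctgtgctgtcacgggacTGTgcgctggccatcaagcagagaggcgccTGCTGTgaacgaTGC
Chrd stretch from codon 73: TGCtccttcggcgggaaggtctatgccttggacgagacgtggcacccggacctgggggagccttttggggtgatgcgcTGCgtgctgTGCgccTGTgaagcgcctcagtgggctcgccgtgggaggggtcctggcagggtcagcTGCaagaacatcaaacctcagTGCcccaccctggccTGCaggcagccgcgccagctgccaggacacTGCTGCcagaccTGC

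Total counts ranged from 24095322 to 30819118 per library. *Prdm16*, the targeted gene, lay at 184 to 225 CPM (counts scaled to a common library size) in WT, 123 to 151 in heterozygote and 19.1 to 27.4 in null ducts, in the order of the labels. Epithelial markers (*Epcam*, *Cdh1*, *Esrp1*, *Cldn6* and *Pax2*) summed to between 1908 and 2419 CPM in all 9 libraries. WT 1, WT 2 and Null 3 stood apart from the other 6 in 10 markers of the periotic mesenchyme, the tissue around the duct, which summed to 564, 1037 and 1632 CPM against 41.8 to 114 CPM, and in 5 endothelial markers, at 73.0, 59.1 and 42.8 CPM against 2.42 to 5.77 CPM. KO markers summed to 3079 to 3844 CPM in WT, 2935 to 3642 in heterozygote and 1583 to 1865 CPM in null ducts. Roof markers summed to 7694 to 8984 CPM in WT, 9282 to 9707 in heterozygote and 10620 to 14070 CPM in null ducts. Prosensory markers were at 675 to 743 CPM in WT, 820 to 848 in heterozygote and 752 to 994 in null ducts. Outer sulcus markers were at 1101 to 1273 CPM in WT, 1156 to 1383 in heterozygote and 1297 to 1800 in null ducts. Melanocyte markers were also apart, at 55.2 to 132 CPM in WT, 20.5 to 40.4 in heterozygote and 12.2 to 42.9 in null ducts, and blood markers were at 86.0 to 239 CPM in WT, 36.7 to 57.6 in heterozygote and 58.4 to 122 in null ducts. Cartilage markers summed to 12830 CPM in Null 3 and 5448 to 6455 CPM in the others. The part of these cell types in the results was not tested. In bulk RNA, fewer cells of a type and less RNA per cell cannot be told apart. The libraries are separate embryos, and the labels give no litter, date or handling batch for them.

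EdgeR's quasi-likelihood test was run for every 2 genotypes on their 6 libraries, and a gene was called at a Benjamini-Hochberg adjusted p under 0.05 over all genes tested with an absolute log2 fold change over 0.5. Of the 9 members, 8 passed the filter on low counts in every comparison and *Grem1* did not. In null against WT, 0.92% of 17168 genes were called higher and 0.786% lower, and the 3 libraries of the genotypes did not overlap in 10.1% of genes (higher in null) and 8.95% (lower). Beside these, 2 of the 8 members were called higher (*Chrdl1* and *Bmper*) and 0 lower, and 3 did not overlap, all higher in null (*Chrdl1*, *Chrd* and *Bmper*). These counts describe the contrast the members were chosen with. Their median log2 fold change was 0.19, with 6 above and 2 below 0, against a median of 0.0097 over all genes tested.

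*Chrdl1* (ENSMUSG00000031283, chrX:143285674-143394262, minus strand) was the member with the largest difference between null and WT ducts. WT libraries 1, 2 and 3 held 18.8, 16.3 and 17.3 CPM. Heterozygote libraries held 22.4, 22.9 and 27.1 CPM, and null libraries held 67.8, 67.8 and 74.5 CPM. The 3 genotypes did not overlap at any point: every heterozygote library lay above every WT library, and every null library lay far above every heterozygote library. Null ducts held 4 times the WT level (95% interval 3.44 to 4.64), a log2 fold change of 2.00 with a standard error (SE) of 0.0933. Over all fits that changed the normalization, the filter, the tool or the libraries used, this value stayed between 1.955 and 2.06.

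The comparison of null with heterozygote ducts uses the null libraries that *Chrdl1* was chosen on, so for the members it too is a description and no p is given. In it 0.293% of 17067 genes were called higher and 0.322% lower, and *Chrdl1* was the member past the same thresholds. Its level in null ducts was 2.90 times that in heterozygotes (95% interval 2.47 to 3.42), a log2 fold change of 1.54 with an SE of 0.102. The value lay between 1.49 and 1.63 when each library was left out and between 1.496 and 1.59 in 12 other alternative fits.

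With 1 copy of the gene trap the difference was small. In heterozygote against WT, 0.0521% of 17269 genes were called higher and 0.0984% lower. The WT libraries are those of null against WT, so p values of *Chrdl1* here are not free of the choice of that gene. *Chrdl1* was 1.38 times the WT level (95% interval 1.18 to 1.61), a log2 fold change of 0.46 with an SE of 0.101, and its edgeR adjusted p of 0.0796 did not pass. The value stayed between 0.37 and 0.52 when each library was left out, with edgeR adjusted p from 0.0606 to 0.309. DESeq2 passed it on adjusted p (0.00464) with a change of 0.46, which is under the fold threshold. Over the 12 other alternative fits the value lay between 0.45 and 0.48. Neither these nor the 6 that left out a library called it. On the CPM scale the heterozygote mean lay 12.6% of the way from the WT mean of 17.5 to the null mean of 70.0 CPM. *Prdm16* itself had moved 35.7% of the way, from 202 to 138 CPM with the null mean at 23.4 CPM. This order depends on the scale. In log2 fold changes, heterozygote against WT gave 0.46 of the 2.00 in null against WT for *Chrdl1*, which is the larger part, and -0.55 of the -3.12 for *Prdm16*.

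The heterozygote was also set against the midpoint of WT and null on the log2 scale, in a fit of all 9 libraries. Its weights are orthogonal to those of null against WT in a balanced design. Both contrasts use the same WT and null libraries, and with counts of unequal spread they need not be independent. For this contrast 0.0112% of 17797 genes were called higher and 0% lower. *Chrdl1* lay 0.54 below the midpoint (log2 difference -0.54, SE 0.086), the seventh smallest p of all genes tested, but its edgeR adjusted p was 0.177 and it was not called. DESeq2 called it (adjusted p 2.94e-05), as did edgeR without a filter on low counts (adjusted p 0.00988), while limma-voom gave an adjusted p of 0.2. *Prdm16* lay 1.01 above its midpoint (SE 0.108, edgeR adjusted p 0.0228) and was called. No member was called by edgeR, 3 had an unadjusted p under 0.05 (*Chrdl1*, *Bmper* and *Nbl1*) beside 1236 of the 17797 genes, DESeq2 called 1 and limma-voom 0.

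**Figure D1:**
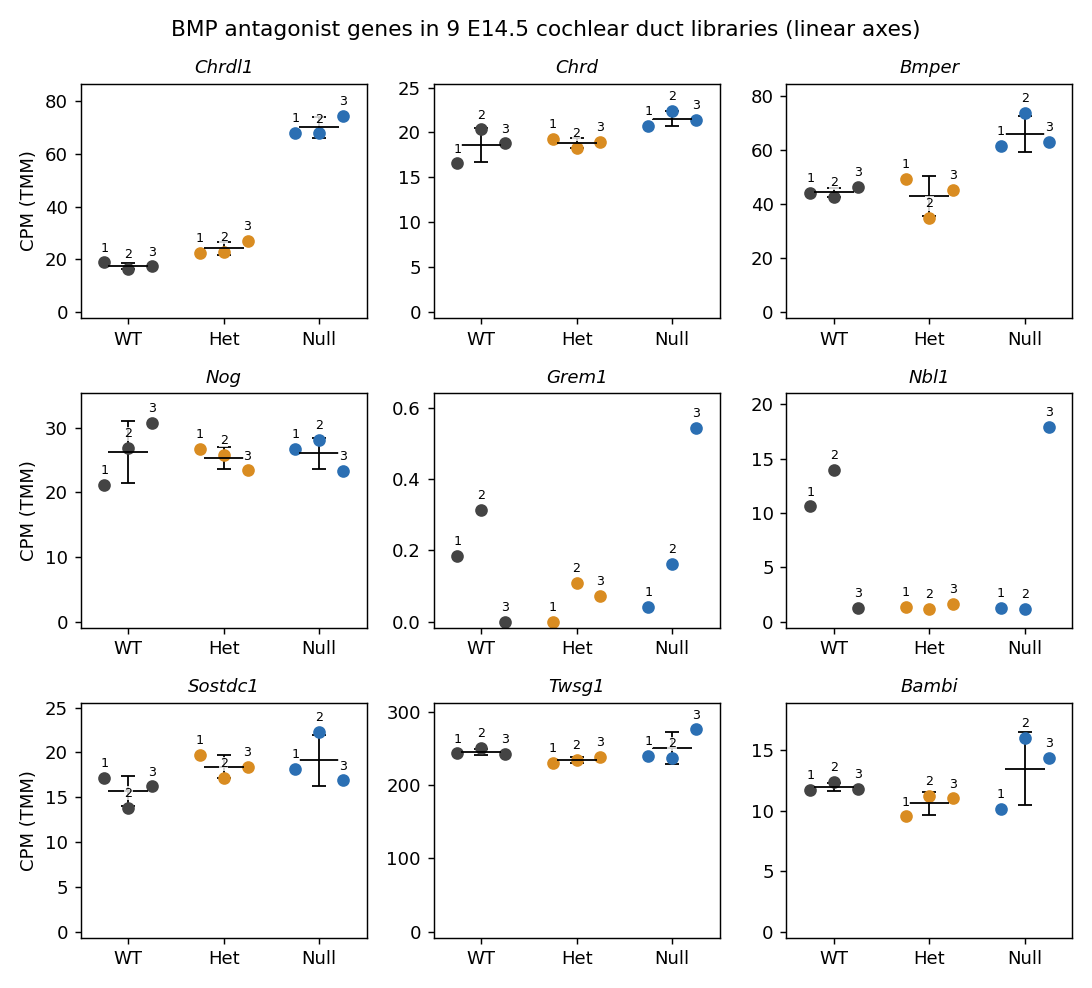
CPM (linear axis) of the 9 genes by genotype; each point is 1 embryo's library with its number, and the line and bars give the mean and SD of 3, which are left out for Grem1 and Nbl1. The null libraries of Chrdl1 sit between 67.8 and 74.5 CPM, above all others, and Nbl1 is high in WT 1, WT 2 and Null 3.

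*Chrdl1* is X-linked, and the embryos were of both sexes, as read from 4 Y-linked genes. WT 1 (male) held 18.8 CPM, beside 16.3 and 17.3 CPM in the female WT libraries. Het 1 (male) held 22.4 CPM, Het 2 22.9 CPM and Het 3 (female) 27.1 CPM. The sex of Het 2 is less clear, as its Y-linked genes summed to 1.55 CPM, just above the planned limit of 1 CPM. Null 1 and Null 2 (male) held 67.8 CPM each and Null 3 (female) 74.5 CPM. The male WT group and the female null group are thus 1 library each. A fit with sex as a covariate gave a null against WT log2 fold change of 2.00, and the part of sex in the level was not tested further.

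*Bmper* (ENSMUSG00000031963, chr9:23223076-23485200, plus strand) was the other member called in null against WT. WT libraries held 44.2, 42.6 and 46.2 CPM, heterozygote libraries 49.3, 34.9 and 45.2 CPM, and null libraries 61.6, 73.6 and 62.9 CPM. All 3 null libraries lay above the other 6, and WT and heterozygote libraries overlapped, with Het 2 the lowest of all. Null ducts held 1.48 times the WT level (95% interval 1.28 to 1.73), a log2 fold change of 0.57 with an SE of 0.0948. The call was kept in 1 of the 6 fits that left out a library, the one without Null 3, and the change itself stayed between 0.49 and 0.62. The call was also lost with the replicate block and with sex as a covariate, while over the 12 other alternative fits the change lay between 0.53 and 0.58.

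Against heterozygotes, null ducts held 1.53 times as much *Bmper* (log2 fold change 0.61, SE 0.136), which edgeR did not call. DESeq2, edgeR without a filter on low counts and edgeR on all 9 libraries did. Heterozygote and WT ducts differed by -0.04 (SE 0.112, edgeR adjusted p 0.917), with a 95% interval of the ratio from 0.817 to 1.16. Relative to the midpoint of WT and null the heterozygote value was -0.33 (edgeR adjusted p 0.693).

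*Chrd* (ENSMUSG00000006958, chr16:20733127-20742384, plus strand), the other gene with the repeats, differed little between genotypes. It held 16.6, 20.3 and 18.8 CPM in WT, 19.3, 18.2 and 18.9 CPM in heterozygote and 20.7, 22.4 and 21.4 CPM in null libraries. The null libraries lay above the other 6 by a small margin, from 20.3 CPM in WT 2 to 20.7 CPM in Null 1. The null against WT log2 fold change was 0.21 (SE 0.119), and null against heterozygote gave 0.19 (SE 0.101). *Chrd* shares 239 exon bases with *Thpo* on the opposite strand, and reads there could belong to either gene if the counting did not use strand.

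In null against heterozygote, the same 3 genes, *Chrdl1*, *Chrd* and *Bmper*, were the members whose libraries did not overlap, all higher in null. Over all genes 9.06% did not overlap in that direction and 9.09% in the other. All 8 tested members had a log2 fold change above 0 in this comparison, from 0.04 for *Nog* to 2.30 for *Nbl1*, with a median of 0.27 against 0.0119 over all genes. This direction was not stable, as *Nog*, *Sostdc1* and *Nbl1* fell below 0 in some alternative fits. The *Nbl1* value rests on Null 3, at 17.9 CPM beside 1.24 and 1.16 CPM in Null 1 and Null 2. The null libraries are those of null against WT, so these values are not a second measurement of the null ducts.

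**Figure D2:**
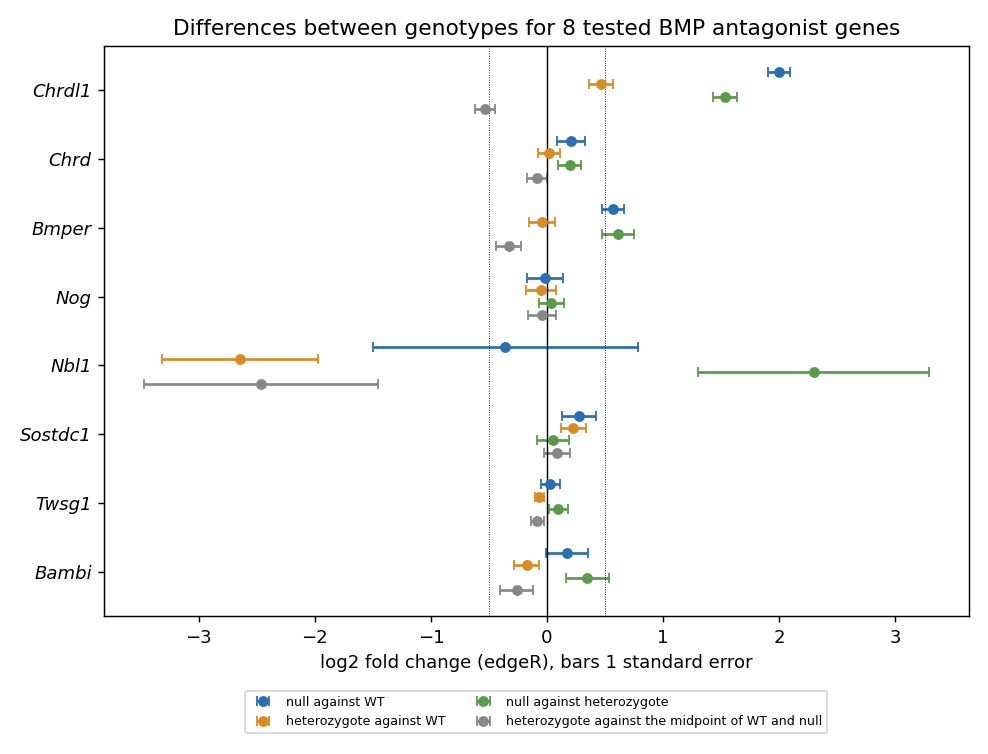
Log2 fold change of the 8 tested genes in 4 comparisons, with bars of 1 SE and dotted lines at the threshold of 0.5 on either side of 0. Chrdl1 stands at 2.00 in null against WT and 1.54 in null against heterozygote; the bars of Nbl1 are far wider than those of the others.

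Among the cystine-knot proteins, *Nog* (ENSMUSG00000048616, chr11:89300638-89302332, minus strand) showed no difference between genotypes that these libraries could detect. WT libraries held 21.1, 26.8 and 30.7 CPM, heterozygote libraries 26.7, 25.8 and 23.4 CPM, and null libraries 26.7, 28.0 and 23.3 CPM. The WT libraries alone spanned the full range of the 9. The null against WT ratio was 0.989, with a 95% interval of 0.769 to 1.27, and heterozygote against WT gave 0.965 (0.791 to 1.18, edgeR adjusted p 0.909).

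*Sostdc1* (ENSMUSG00000036169, chr12:36314139-36318452, plus strand), which also acts on Wnt co-receptors, held 17.1, 13.8 and 16.2 CPM in WT. Heterozygote libraries held 19.7, 17.1 and 18.4 CPM, and null libraries 18.1, 22.3 and 16.9 CPM. Heterozygote libraries did not overlap WT, by a margin of under 0.1 CPM, but null libraries did. The heterozygote against WT log2 fold change was 0.23 (SE 0.106, edgeR adjusted p 0.401), and null against WT gave 0.28 (SE 0.147).

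*Grem1* (ENSMUSG00000074934, chr2:113746164-113758646, minus strand) was at the limit of detection. It had 5, 8 and 0 counts in WT, 0, 3 and 2 in heterozygote and 1, 5 and 13 in null libraries. A count of 3, taken as the floor, equals 0.0968 to 0.126 CPM in these libraries and covers counting error only. The most counts came from Null 3, WT 2, WT 1 and Null 2, and no fold is given for this gene.

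*Nbl1* (ENSMUSG00000041120, chr4:139082284-139092993, minus strand) was split between libraries and not between genotypes. WT libraries held 10.6, 14.0 and 1.25 CPM, heterozygote libraries 1.32, 1.15 and 1.64 CPM, and null libraries 1.24, 1.16 and 17.9 CPM. The high libraries were WT 1, WT 2 and Null 3, and the other 6 lay within 1.15 to 1.64 CPM whatever their genotype. They are the 3 libraries high in mesenchyme markers, and the order was the same in both measures, with Null 3 highest, WT 2 next and then WT 1. The part of mesenchyme in the level of *Nbl1* was not tested.

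The fold changes of *Nbl1* therefore rest on these libraries. Heterozygote against WT gave a log2 fold change of -2.64 (SE 0.672, edgeR adjusted p 0.117), and null against heterozygote gave 2.30 (SE 0.997). Without WT 1, WT 2 and Null 3, a choice made after seeing the data that leaves 1 WT library, assumed to vary like the others, the values were 0.13 and -0.19. The null against WT value of -0.36 had an SE of 1.14. *Nbl1* was called lower in heterozygotes without WT 3, when both WT libraries left were high, and by edgeR without the filter on low counts (adjusted p 1.31e-22). DESeq2 gave an adjusted p of 0.0782 and limma-voom 0.506.

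*Chrdl1* and *Bmper* were also set beside the mesenchyme markers. *Chrdl1* in Null 3, the library highest in these markers, was 74.5 CPM, close to the 67.8 CPM of Null 2, the lowest. WT 1 and WT 2, high in the markers, held 18.8 and 16.3 CPM of *Chrdl1*, and WT 3, low in them, held 17.3 CPM. Without the 3 libraries the log2 fold change was 1.98 for *Chrdl1* in null against WT and 1.496 in null against heterozygote. For *Bmper* it was 0.56, no longer called, with WT 3 as the single WT library. With the log2 sum of the markers as a covariate the null against WT values were 2.02 and 0.53.

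**Figure D3:**
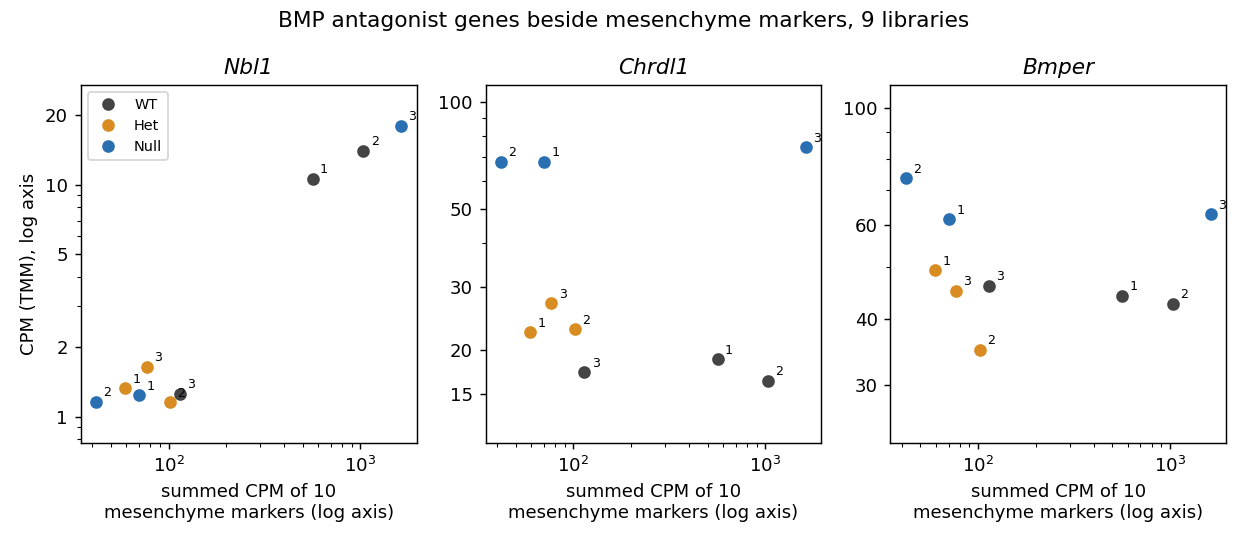
CPM of Nbl1, Chrdl1 and Bmper (log axis) against the summed CPM of 10 mesenchyme markers (log axis); each point is a library with its number, coloured by genotype. Nbl1 is above 10 CPM in WT 1, WT 2 and Null 3 and under 2 CPM in the other 6, while the null libraries of Chrdl1 and Bmper lie above the WT libraries; no heterozygote library is high in the markers.

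*Twsg1* (ENSMUSG00000024098, chr17:65921972-65951226, minus strand) was the most abundant member and the least variable in WT and heterozygote ducts. WT libraries held 244, 251 and 243 CPM, heterozygote libraries 231, 234 and 239 CPM, and null libraries 241, 237 and 276 CPM. Heterozygotes lay below WT without overlap, and Null 3 stood above the other 8. The differences were small: the heterozygote was 0.954 times the WT level (95% interval 0.9 to 1.01, edgeR adjusted p 0.504), and null ducts 1.02 times (0.894 to 1.16).

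*Bambi* (ENSMUSG00000024232, chr18:3507923-3516404, plus strand), itself induced by BMP signalling, held 11.7, 12.3 and 11.8 CPM in WT and 9.51, 11.2 and 11 CPM in heterozygotes. Null libraries were spread wider, at 10.1, 16.0 and 14.3 CPM, on both sides of WT. Heterozygotes lay below WT without overlap, at a log2 fold change of -0.17 (SE 0.107, edgeR adjusted p 0.545). Null against heterozygote gave 0.35 (SE 0.186).

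In heterozygote against WT, 4 of the 8 members did not overlap, *Chrdl1* and *Sostdc1* higher and *Bambi* and *Twsg1* lower. The shares over all genes were 8.97% and 8.99%. None of the members was called by edgeR, 2 had an unadjusted p under 0.05 (*Chrdl1* and *Nbl1*) beside 2266 of all 17269 genes, and DESeq2 and limma-voom called 0. The WT libraries of this comparison are those of null against WT, so these counts are not free of the choice of *Chrdl1*.

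Among the null embryos, Null 2 had the highest level of 5 of the 9 members (*Chrd*, *Nog*, *Sostdc1*, *Bambi* and *Bmper*), Null 3 of 4 (*Chrdl1*, *Grem1*, *Nbl1* and *Twsg1*) and Null 1 of 0. Null 2 also had the highest summed level of 5 outer sulcus markers, 1800 CPM beside 1564 in Null 1 and 1297 in Null 3, and of 6 roof markers, 14070 CPM beside 11190 and 10620. The part of these cell types in the member levels was not tested. The coefficient of variation among null libraries was 4% for *Chrd*, 5.52% for *Chrdl1*, 8.6% for *Twsg1*, 9.43% for *Nog*, 9.98% for *Bmper*, 15% for *Sostdc1* and 22.5% for *Bambi*. It was 143% for *Nbl1*, high in Null 3 alone, and 106% for *Grem1*, at the limit of detection.

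Levels of different genes were compared per length, as CPM per kilobase of exon (RPKM). In WT ducts *Twsg1* led with 47.7 ± 0.819 RPKM (SD, n = 3), followed by *Nog* with 15.5 ± 2.84, *Bmper* with 9.17 ± 0.366 and *Sostdc1* with 8.82 ± 0.948. *Nbl1* followed at 4.24 ± 3.25, then *Chrd* at 2.96 ± 0.305, *Chrdl1* at 2.58 ± 0.181, *Bambi* at 2.35 ± 0.0679 and *Grem1* at 0.0401 ± 0.038. *Bmper* and *Sostdc1* overlapped between libraries, as did *Chrd* with *Chrdl1* and *Chrdl1* with *Bambi*. *Nbl1* ranged from 0.617 to 6.88 and has no firm place.

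In null ducts *Chrdl1* stood at 10.4 ± 0.572 RPKM, above *Chrd* at 3.44 ± 0.138 and overlapping *Sostdc1* at 10.7 ± 1.61, with *Bmper* at 13.7 ± 1.36. It had been below *Sostdc1* in every WT library. The summed level of the 9 genes was 93.4 ± 2.46 RPKM in WT, 89.1 ± 2.2 in heterozygotes and 108 ± 7.4 in null ducts. *Chrdl1* made up 2.77% of this sum in WT, 4% in heterozygotes and 9.57% in null ducts, while *Twsg1* went from 51.1% in WT to 45% in null. The level of *Twsg1* itself was 47.7 ± 0.819 RPKM in WT and 48.8 ± 4.2 RPKM in null ducts. Without *Chrdl1* the sum was 90.8 ± 2.62 RPKM in WT and 98.01 ± 6.89 in null ducts, and the libraries of these groups overlapped.

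**Figure D4:**
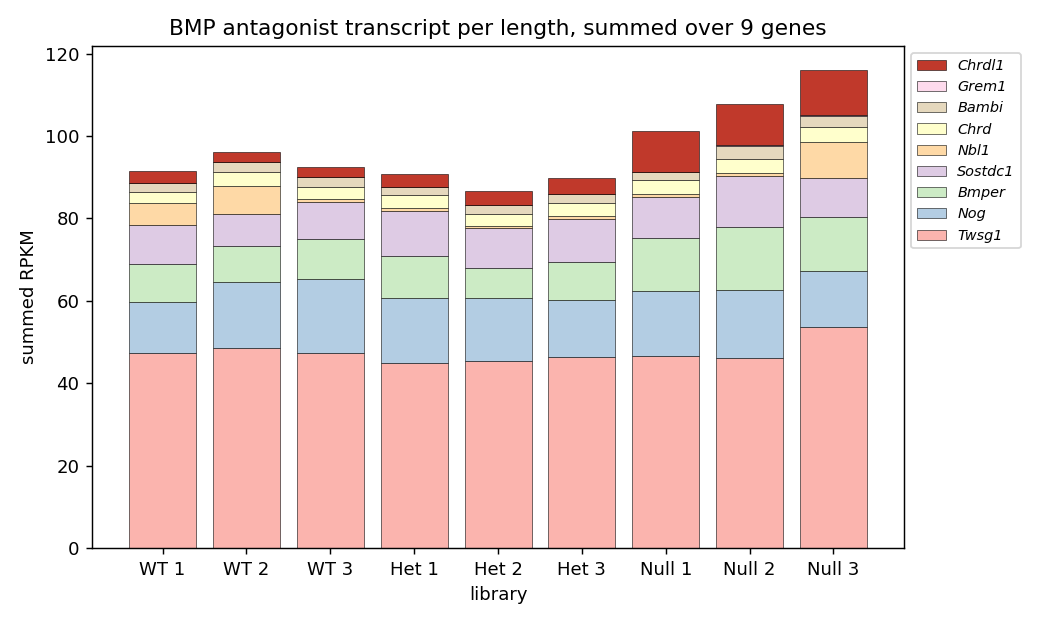
Summed RPKM of the 9 genes in each library, stacked by gene from Twsg1 at the base to Chrdl1 at the top in red. The Chrdl1 part is 2.77% of the sum in WT and 9.57% in null ducts, and the Nbl1 part is visible in WT 1, WT 2 and Null 3.

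The genes whose levels followed *Chrdl1* most closely were found from the root mean square difference of log2 CPM, each gene centred on its mean over the 9 libraries, among 17796 other genes. The nearest was *Alpk2*, an alpha-kinase gene, at 0.244, followed by *Fam163a* at 0.257, *Postn* at 0.258, *Gm45889* at 0.26 and *Dync1i1*, a dynein intermediate chain gene, at 0.262. *Postn* encodes periostin, a matrix protein, and went from a mean of 138 CPM in WT to 188 in heterozygotes and 419 in null ducts. *Alpk2* went from 3.58 to 7.03 and 19.1 CPM. All 5 are chosen by likeness to *Chrdl1* in these libraries. Of the other members *Bmper* was nearest, at rank 334 with 0.613, and *Chrd* was next at rank 2090. *Nbl1* was at rank 17619 with 1.86.

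**Figure D5:**
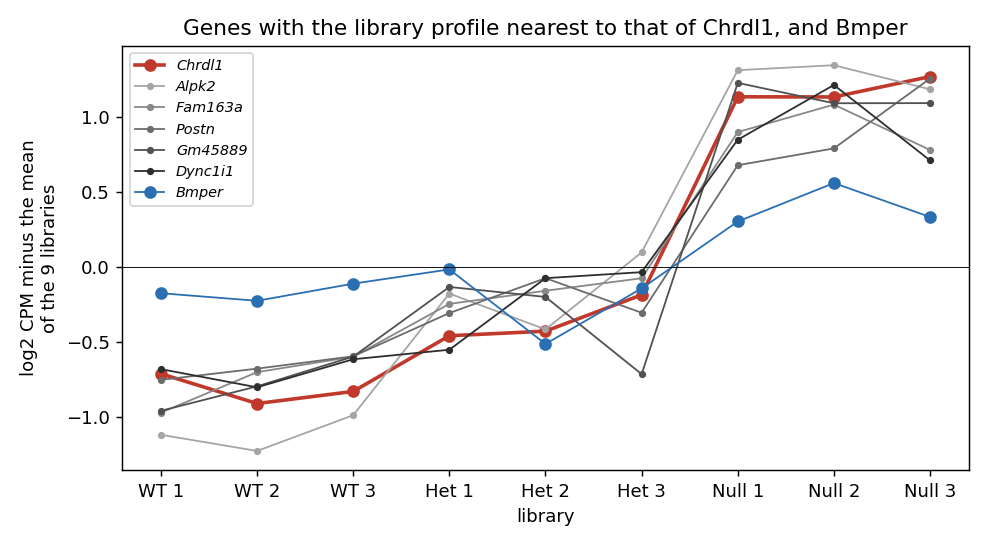
Log2 CPM minus the mean of the 9 libraries for Chrdl1, the 5 genes with the nearest profile and Bmper; lines join the libraries of a gene and mark no order. Chrdl1 and the 5 genes lie above 0 in the null libraries and below it in WT, and Bmper has the same direction in null with a smaller span.

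The other genes of the pathway were counted from lists of ligands, receptors, Smads, targets and other extracellular modulators. Of 20 other modulators, 15 were tested in null against WT, and 2 fell, beside 0.786% of all genes: *Vwc2* (brorin, another protein with chordin-type repeats) and *Smoc2*, a matricellular BMP antagonist. *Vwc2* held 14.1, 12.4 and 12.9 CPM in WT, 9.39, 6.20 and 6.61 CPM in heterozygote and 5.94, 6.32 and 5.78 CPM in null libraries. The null against WT log2 fold change was -1.13 (SE 0.136, edgeR adjusted p 0.00768). *Vwc2* was thus lower and *Chrdl1* higher in the same null libraries.

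*Smoc2* held 216, 195 and 198 CPM in WT, 149, 146 and 153 CPM in heterozygote and 94.7, 125 and 109 CPM in null libraries. The 3 genotypes did not overlap. The null against WT log2 fold change was -0.89 (SE 0.108, edgeR adjusted p 0.00768), and heterozygote against WT gave -0.44 (SE 0.0481, edgeR adjusted p 0.0126), under the fold threshold.

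*Kcp* (kielin/chordin-like protein, known to enhance BMP signalling) was called lower in heterozygotes. It held 8.07, 8.66 and 7.12 CPM in WT, 4.45, 4.29 and 3.91 CPM in heterozygote and 3.88, 3.26 and 11.1 CPM in null libraries. The heterozygote against WT log2 fold change was -0.91 (SE 0.142, edgeR adjusted p 0.0466). Null 3 was the highest of the 9 and Null 2 the lowest, and null against WT gave -0.40 (SE 0.436, edgeR adjusted p 0.772). Without Null 3 *Kcp* was called lower in null ducts, by edgeR at -1.16 on the log2 scale (adjusted p 0.0274), and over the other alternatives the value lay between -0.99 and -0.08 and was not called. Neither *Vwc2* nor *Smoc2* was called in null against WT without WT 1 or without WT 2, and *Vwc2* was also not called with the replicate block or without WT 1, WT 2 and Null 3. In that last fit WT 3 was the single WT library, with 12.9 CPM of *Vwc2* beside 5.94 and 6.32 CPM in Null 1 and Null 2. *Kcp* was called in heterozygotes by neither limma-voom nor the fit of all 9 libraries nor with the planned sex covariate, and in 1 of the 6 fits that left out a library, the one without WT 3. Its call was also lost with the mesenchyme covariate and without WT 1, WT 2 and Null 3, the libraries high in mesenchyme markers. Without them WT 3 was the single WT library, at 7.12 CPM beside 4.45, 4.29 and 3.91 CPM in heterozygotes. The part of mesenchyme in the level of *Kcp* was not tested. *Kcp* was the 1 modulator of 15 called in heterozygote against WT, beside 0.0984% of all genes called lower. Of the 15, 7 had an unadjusted edgeR p under 0.05, beside 2266 of all 17269 genes. DESeq2, which also called more of all genes in this comparison than edgeR did, called 5 of them and limma-voom 0. There 7 did not overlap and were lower in heterozygotes (*Fstl1*, *Fstl4*, *Kcp*, *Vwc2*, *Smoc2*, *Tll1* and *Tll2*) and 1 was higher (*Tsku*), beside 8.99% and 8.97% of all genes. Null libraries 1, 2 and 3 held 403, 440 and 873 CPM of *Fstl1* and 1.61, 0.87 and 7.83 CPM of *Tll1*. *Fstl4*, *Tll2* and *Kcp* were likewise highest in Null 3 among null libraries, and *Vwc2* and *Smoc2* were not. No heterozygote library was high in mesenchyme markers, and the part of mesenchyme in these differences was not tested. The median log2 fold change of the tested modulators was -0.09 in heterozygote against WT. It was 0.13 in null against WT, and -0.08 there without Null 3.

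Of 14 ligand genes 9 were tested, and edgeR called 0 in every comparison. In null against WT 3 had an unadjusted p under 0.05, beside 2101 of all 17168 genes, and DESeq2 called 2, beside 609 genes. In heterozygote against WT the counts were 5, beside 2266 of 17269, and 0, beside 297, and limma-voom called 0 ligands in both. In null against WT 8 of the 9 ligands had a log2 fold change above 0, with a median of 0.55. Without Null 3, 5 of the 9 lay above 0 and the median was 0.01. *Gdf10*, *Bmp5* and *Bmp3*, named after their values were seen, held 90.1, 40.2 and 22.1 CPM in Null 3 and at most 4.62 CPM in the other null libraries. With all libraries 3 ligands did not overlap, all higher in null (*Bmp2*, *Bmp8b* and *Gdf6*), beside 10.1% of all genes in that direction. The most abundant were *Bmp4*, with 262, 262 and 281 CPM in WT and 327, 405 and 254 CPM in null libraries, and *Bmp7*. *Bmp4* overlapped between genotypes (log2 fold change 0.29, SE 0.155, edgeR adjusted p 0.517). *Bmp7* gave -0.07 (SE 0.0704, edgeR adjusted p 0.731). *Bmp2* and *Bmp8b*, named here after their values were seen, were the ligands DESeq2 called. *Bmp2* held 6.26, 4.62 and 5.12 CPM in WT, 9.39, 6.88 and 6.03 CPM in heterozygote and 11.1, 11.9 and 28.9 CPM in null libraries. All 3 null libraries lay above the other 6, with Null 3 far above the rest, and the null against WT log2 fold change was 1.69 (SE 0.374, edgeR adjusted p 0.0812). *Bmp2* was also called without the filter on low counts, with all 9 libraries in one fit, with the mesenchyme covariate and without Null 3. *Bmp8b* went from 11.7 ± 0.153 CPM in WT to 17.2 ± 1.88 in null ducts (log2 fold change 0.55, SE 0.127, edgeR adjusted p 0.0963), and was also called with all 9 libraries and without Null 3. The highest *Bmp4* level, in Null 2, lay beside the highest levels of *Bambi*, *Bmper*, *Chrd* and *Sostdc1* among the 9 libraries. Null 2 was also the highest in outer sulcus markers, which include *Bmp4*, and in roof markers. This was picked after the values were seen, and a relation between these levels was not tested.

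Of 11 receptor and co-receptor genes 10 were tested, and all 6 Smad genes. EdgeR called 0 of either list in every comparison; in null against WT 3 receptors and 1 Smad had an unadjusted p under 0.05, beside 2101 of 17168 genes, and DESeq2 and limma-voom called 0. In heterozygote against WT 3 receptors and 2 Smads had one, beside 2266 of 17269 genes, and DESeq2 called 2 receptors lower in heterozygotes, *Acvrl1* and *Eng*, named after their values were seen. *Eng*, a co-receptor of endothelial cells, held 12.4, 14.6 and 1.02 CPM in WT, 0.72 to 1.28 CPM in heterozygote and 0.70, 0.23 and 13.5 CPM in null libraries, and *Acvrl1* was also highest in WT 1, WT 2 and Null 3, the libraries high in endothelial and mesenchyme markers. The part of these cells was not tested. In null against heterozygote 5 receptors and 0 Smads had an unadjusted edgeR p under 0.05, beside 1944 of 17067 genes, and DESeq2 and limma-voom called 0. *Bmpr1a*, a type I receptor, was 226 ± 4.03 CPM in WT and 226 ± 28.5 in null ducts. *Rgma*, a co-receptor, was 340 ± 4.14 CPM in WT and 299 ± 15.9 in null ducts, lower in every null library (log2 fold change -0.19, SE 0.0722, edgeR adjusted p 0.333). *Rgmb*, another co-receptor, named after its values were seen, was higher in every null library, at 79.5 ± 6.13 and 94.85 ± 3.42 CPM (0.25, SE 0.08, edgeR adjusted p 0.238). These were the receptors that did not overlap, 1 in each direction, beside 8.95% of all genes lower and 10.1% higher. *Smad5* was 165 ± 11.4 CPM in WT and 144 ± 25.9 in null ducts, and *Smad4* 138 ± 3.7 and 131 ± 17.8 CPM. The other 4 Smads had a log2 fold change above 0 in null against WT. Of the 6, 3 did not overlap, all higher in null (*Smad1*, *Smad6* and *Smad7*), beside 10.1% of all genes in that direction.

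Of 10 target genes, which include *Bambi*, *Smad6* and *Smad7*, edgeR called 0 in null against WT, where 4 had an unadjusted p under 0.05, beside 2101 of all 17168 genes, DESeq2 called 3 and limma-voom 0. In heterozygote against WT *Msx1*, a homeobox gene, was called higher, 1 of the 10 targets beside 0.0521% of all 17269 genes. It held 12.8, 14.1 and 15.01 CPM in WT, 20.6, 26.6 and 21.7 CPM in heterozygote and 18.6, 23.1 and 20.1 CPM in null libraries. WT was below both other genotypes, which overlapped (heterozygote against WT log2 fold change 0.72, SE 0.116, edgeR adjusted p 0.0498; null against WT 0.56, edgeR adjusted p 0.101). With its adjusted p at the threshold, *Msx1* in heterozygote against WT was not called by limma-voom, with RLE size factors or with all 9 libraries in one fit. Nor was it called with the planned sex covariate, with the mesenchyme covariate or without WT 1, WT 2 and Null 3. Of the 6 fits that left out a library 1 called it, the fit without WT 3. Where the 3 libraries were removed, WT 3 was the single WT library, at 15.01 CPM beside 20.6 to 26.6 CPM in heterozygotes. In null against WT DESeq2 and the fit of all 9 libraries called *Msx1*, *Id4* and *Atoh8*, the latter pair named here after their values were seen. *Id2* and *Id3*, the most abundant targets, gave 0.12 and -0.22 in null against WT (edgeR adjusted p 0.775 and 0.668). *Id4*, of the same family of inhibitors of helix-loop-helix factors, held 59.2, 47.8 and 57.8 CPM in WT, 70.9, 63.8 and 71.0 CPM in heterozygote and 90.3, 79.4 and 72.6 CPM in null libraries. The 3 genotypes did not overlap (null against WT 0.55, SE 0.114, edgeR adjusted p 0.0653). *Atoh8* held 10.9, 13.0 and 12.7 CPM in WT and 15.6, 18.6 and 18.1 CPM in null libraries (0.51, SE 0.136, edgeR adjusted p 0.149). In null against WT 5 of the 10 targets did not overlap, all higher in null (*Id4*, *Msx1*, *Atoh8*, *Smad6* and *Smad7*), beside 10.1% of all genes in that direction. In heterozygote against WT 3 were higher without overlap (*Id4*, *Msx1* and *Smad6*) and 1 lower (*Bambi*), beside 8.97% and 8.99% of all genes. The median of the 10 targets was 0.20 in null against WT and -0.01 in heterozygote against WT.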

How the data were processed

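E14.5 cochlear duct RNA was measured in 3 embryos of each genotype (WT, cGT/+ and cGT/cGT). The authors used a TruSeq mRNA kit and HiSeq single reads, and deposited raw counts of reads per Ensembl gene, as whole numbers. The submitters' processing notes name cutadapt 1.13, STAR, HTSeq 0.6.1p1, DESeq2 and the mm10 build; the strand setting and annotation release are not given in the sources used here. Symbols, positions, exon lengths and coding sequences came from GENCODE M21 (GRCm38), which held 54165 of the 54232 genes. All 37 mitochondrial genes were at 0.

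Members, lists and tests were chosen with earlier results of these data known. Counts were tested with edgeR 4.0.16 in R 4.3.3 (TMM, filterByExpr with its minimum count of 10, quasi-likelihood test, Benjamini-Hochberg adjustment over all genes tested). CPM values used TMM library sizes over the 9 libraries, log2 CPM a prior count of 2, and RPKM the union of exons. SEs were taken from the fold change and the F statistic, and 95% intervals used the degrees of freedom of the fit. The procedure was tested on simulated counts. An exact permutation test of 3 against 3 libraries cannot give a two-sided p below 0.1. The precision is limited by the 3 embryos of each genotype and by library totals between 24095322 and 30819118.

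Named genes were the 9 members, *Prdm16*, the called genes of the other pathway lists (or the most abundant 2 of a list where none was called), and the 5 genes with the profile nearest to *Chrdl1*. Alternatives were DESeq2 1.42.0, limma-voom (limma 3.58.1), RLE or no composition factors, no filter or a mean count of 100, all 9 libraries in one fit, the replicate block, sex, other fold thresholds and leaving out each library; a second sex limit, a mesenchyme covariate and the removal of 3 libraries were added after seeing the data. RefSeq promoter sequences were not used.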

Additional observations from a re-analysis of the deposited data

How the results depend on the processing

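Values are given in the order null against WT, heterozygote against WT, null against heterozygote, and heterozygote against the midpoint, where edgeR as reported called 293, 26, 105 and 2 of all genes, 2, 0, 1 and 0 of the 8 tested members, and 2, 2, 0 and 0 of the other pathway genes. *Chrdl1* kept its direction in all fits of all 4 comparisons, and its value passed the thresholds in null against WT and null against heterozygote in each of them, which describes the null libraries it was chosen on. DESeq2 called 609, 297, 361 and 29 genes, 2, 0, 2 and 1 members and 8, 8, 2 and 0 pathway genes. Without a filter on low counts edgeR called 476, 684, 366 and 35 genes, 2, 1, 2 and 1 members and 4, 11, 3 and 0 pathway genes. With all 9 libraries in one fit, which is how the midpoint was fitted, it called 468, 0 and 164 genes, 2, 0 and 2 members and 7, 0 and 0 pathway genes. limma-voom called 11 genes in heterozygote against WT, with 0 pathway genes, and RLE size factors left 1 pathway gene there. A log2 fold change threshold of 0 gave 45 genes in that comparison, and a threshold of 1 gave 167, 9, 62 and 1 genes, 1, 0, 1 and 0 members and 1, 0, 0 and 0 pathway genes.

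The replicate numbers were shared by genotypes in the labels, but same-numbered libraries did not deviate together (correlations -0.284 to 0.202), so they were not treated as pairs. With the replicate block the counts were 133, 197, 52 and 0 genes, 1, 0, 1 and 0 members (*Chrdl1*) and 1, 5, 0 and 0 pathway genes. Sex as a covariate, with Y-linked genes over 1 CPM as male, gave 214, 0, 69 and 0 genes, 1, 0, 1 and 0 members and 2, 0, 0 and 0 pathway genes. Het 2 was male by this limit at 1.55 CPM, where the other males had 276 CPM or more, and with a limit of 100 CPM, chosen after seeing the data, the counts were 214, 53, 118 and 4 genes, 1, 0, 1 and 0 members and 2, 4, 0 and 0 pathway genes. The covariate of mesenchyme markers, also added later, gave 433, 10, 263 and 1 genes, 2, 0, 1 and 0 members and 4, 0, 0 and 0 pathway genes. Without WT 1, WT 2 and Null 3 the counts were 208, 14, 201 and 4 genes, 1, 0, 1 and 0 members and 1, 0, 0 and 0 pathway genes. Why the counts moved was not tested.

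Leaving out each library in turn gave 68 (without WT 2) to 446 (without Null 3), 0 (without Het 2 or Het 3) to 505 (without WT 3), 12 (without Het 1) to 182 (without Null 3), and 0 to 4 genes (4 without Het 2). It gave 1 to 2, 0 to 1, 1 to 1 and 0 to 0 members, and 0 to 7, 0 to 9, 0 to 1 and 0 to 0 pathway genes. *Nbl1* was the member added without WT 3, and in heterozygote against WT without the filter. Of 592 member fold changes under the alternatives, 29 changed sign, none of them past the test as reported. In null against WT they were *Nog* (0.0331 with either sex covariate, -0.14 to 0.12 without single libraries), *Nbl1* (0.0214 with the mesenchyme covariate, -2.84 to 0.19) and *Twsg1* (-0.0203 without the 3 libraries, -0.0428 to 0.0739). In heterozygote against WT they were *Nog* (0.00603 with the planned sex covariate, -0.19 to 0.0797), *Nbl1* (0.42 with the mesenchyme covariate, 0.13 without the 3 libraries), *Chrd* (-0.0574 to 0.0894) and *Bmper* (-0.15 to 0.0899). In null against heterozygote they were *Nog* (-0.0211 with the later sex covariate, -0.0159 to 0.11), *Sostdc1* (-0.0176 likewise, -0.0717 to 0.14) and *Nbl1* (-0.19 without the 3 libraries, -0.20 to 2.80). Against the midpoint they were *Sostdc1* (-0.0134 with the mesenchyme covariate), *Nbl1* (0.16 without the 3 libraries) and *Nog* (-0.11 to 0.0176). With 3 embryos per genotype, the 95% intervals of the null to WT ratio of *Chrd* (0.955 to 1.4), *Sostdc1* (0.957 to 1.54) and *Bambi* (0.841 to 1.5) allow a change in either direction.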
